A study of Mus musculus with 4 samples.

Results

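Notch receptors are membrane proteins that are cut when a ligand on a neighbouring cell binds them, and the released inner part of the receptor enters the nucleus. There it joins the DNA-binding protein RBPJ and switches on target genes such as those of the Hes and Hey families. In blood vessels the pathway is known for setting arterial identity, for the sprouting of endothelium and for the maturation of pericytes and smooth muscle, and in the heart for the growth of the endocardium, the valves and the compact ventricular wall.

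The genes described are the 4 receptors (Notch1, Notch2, Notch3 and Notch4), 4 ligands (Jag1, Jag2, Dll1 and Dll4), the DNA-binding partner Rbpj and the target gene Hey2. They were chosen by symbol, all 10 were found among the 21884 genes measured, and all 10 had UMIs (unique molecular identifiers, each standing for 1 captured RNA molecule) in each of the 4 libraries. Nuclei of snap-frozen hearts were sequenced singly, 1 heart for each library, and every animal was a wild-type C57BL/6J male. All 4 hearts came from offspring that were injured at day 1 after birth and sampled 21 days after that injury. In 2 libraries the father had been injured (injured-father libraries 1 and 2) and in 2 it had not (uninjured-father libraries 1 and 2), so no heart without an injury of its own was in the design. The kind of injury, and whether the hearts of a group came from 1 father or litter, are not stated in the labels, so p-values measure only the spread between these hearts.

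After filtering, 6791 to 9537 nuclei per library remained, 33995 in all, with 15651493 to 32862240 UMIs per library and medians of 1860 to 2665 UMIs per nucleus. Uninjured-father library 2 had the fewest nuclei and the lowest median. Marked doublets, which were removed, made up 9.62% to 14.9% of nuclei, and any pair of libraries shared 14 to 22 cell barcodes. Nuclei were clustered without the 10 genes and without 63 other genes of the pathway, and clusters were named by marker genes that include none of these 73. Each name marks likeness to a cell type, and 13 classes were named. The markers of cardiomyocytes summed to between 93972 and 106460 CPM (a gene's UMIs scaled to the same total in each class and library) in cardiomyocyte-like nuclei. The same markers summed to 5781 to 7071 CPM in endocardial-like, 7907 to 10184 in pericyte-like and 16705 to 19353 in smooth muscle-like nuclei, so cardiomyocyte transcripts were counted in other classes too.

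The stretches of DNA just before the start sites of Hey2 and Rbpj are shown because, of the 10 genes, these 2 hold the core of the sequence that RBPJ is known to bind. The letters searched for on both strands were TGGGAA and the longer GTGGGAA, which contains it, in the 250 bases before each start site. Sequences are from RefSeq on GRCm38.p6, in which all 10 genes were matched. Each is printed in the direction of the gene with matches in capitals, and a match on the other strand reads TTCCCA or, for the longer motif, TTCCCAC. The stretch of Hey2 is chr10:30842784-30843033 on the minus strand and that of Rbpj is chr5:53590096-53590345 on the plus strand.
Hey2: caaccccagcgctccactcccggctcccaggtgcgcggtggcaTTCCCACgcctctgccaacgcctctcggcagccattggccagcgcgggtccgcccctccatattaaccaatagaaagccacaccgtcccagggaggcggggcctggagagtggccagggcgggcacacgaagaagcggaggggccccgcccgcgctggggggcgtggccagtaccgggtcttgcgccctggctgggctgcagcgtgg
Rbpj: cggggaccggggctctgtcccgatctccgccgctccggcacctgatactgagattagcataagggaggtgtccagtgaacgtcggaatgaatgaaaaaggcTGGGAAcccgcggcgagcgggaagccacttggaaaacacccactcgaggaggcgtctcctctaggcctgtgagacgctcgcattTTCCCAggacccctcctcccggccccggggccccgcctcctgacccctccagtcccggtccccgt

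Hey2 was the 1 member of 10 with GTGGGAA, and Hey2 and Rbpj were the 2 with TGGGAA. Over all 27025 genes of the RefSeq table, 6.18% held GTGGGAA and 24.1% held TGGGAA before any of their start sites, in windows of the same length. The share of members with TGGGAA, 2 of 10, was therefore not above that of all genes. Of 5 other target genes found among these sequences, Hes5 and Hes7 held GTGGGAA, while Hes6, Nrarp and Efnb2 held neither. The targets Hes1, Hey1 and Heyl were not among the sequences used and so were not searched. A match describes the letters only, and no binding was measured.

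The receptors fell into different classes of the vessel wall, blood and muscle. Notch3 was highest in mural cells (pericytes and smooth muscle), Notch4 in vascular endothelium, Notch1 in endocardium, and Notch2 in B lymphocyte-like and macrophage- or monocyte-like nuclei. Not every cluster of smooth muscle-like nuclei was high in Notch3, as given below. Jag2, Dll1 and Dll4 were highest in vascular endothelial-like nuclei, Jag1 in pericyte-like, Hey2 in smooth muscle-like and Rbpj in macrophage- or monocyte-like nuclei. Levels below are CPM, are compared for 1 gene at a time, and are means ± SD over the 4 libraries. Orders of levels are over the 11 classes with at least 20 nuclei in every library.

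**Figure D1:**
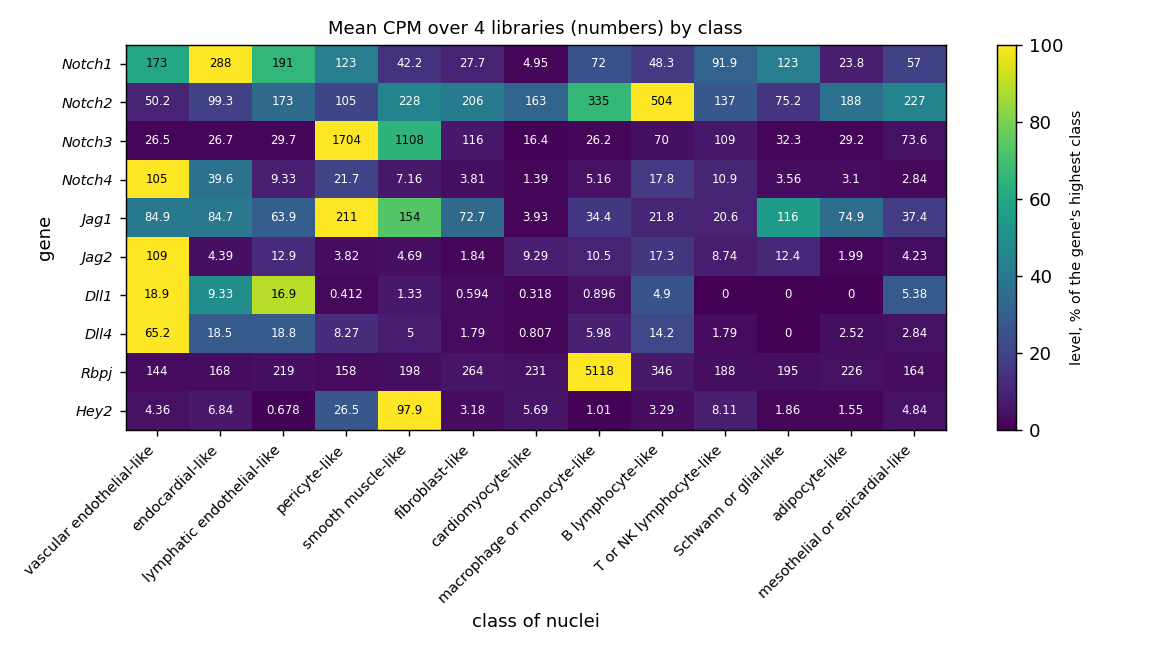
Mean level of each gene (rows) in 13 classes of nuclei (columns), as CPM over the 4 libraries (printed numbers); the colour gives the level as a percentage of that gene's own highest class. Rbpj stands at 5118 CPM in macrophage- or monocyte-like nuclei and Notch3 at 1704 CPM in pericyte-like nuclei, while Notch2 is spread over most classes.

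Notch3, the receptor whose mutation causes the small-vessel disease CADASIL, stood at 1867 and 1464 CPM in pericyte-like nuclei of injured-father libraries 1 and 2 and at 1681 and 1806 CPM in uninjured-father libraries 1 and 2. In smooth muscle-like nuclei it stood at 1048, 1150, 978 and 1258 CPM in the same order. The 2 ranges did not overlap, and fibroblast-like nuclei came next at 116 CPM ± 18.6. The smooth muscle-like class joined 2 clusters that are described below. Their Notch3 levels were 1451 to 1978 CPM in cluster 17 and 42.5 to 161 CPM in cluster 22. A UMI of Notch3 was found in 87.6% of pericyte-like nuclei (median depth 1643 UMIs) and in 3.89% of vascular endothelial-like nuclei (1552.5 UMIs), and in 77.0% and 2.39% after each nucleus was thinned to 1000 UMIs.

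Notch1, a receptor needed for endocardium and arteries to form, stood at 275, 319, 249 and 308 CPM in endocardial-like nuclei. Lymphatic endothelial-like nuclei held 191 CPM ± 32.1, vascular endothelial-like 173 ± 13.2 and pericyte-like nuclei 123 ± 22.0. The endocardial-like range lay above all others, while the lymphatic and vascular endothelial-like ranges overlapped. Cardiomyocyte-like nuclei were lowest at 4.95 CPM ± 1.32. A UMI of Notch1 was found in 49.8% of endocardial-like nuclei (median depth 2502.5 UMIs) and in 2.37% of cardiomyocyte-like nuclei (4312 UMIs), or 24.5% and 0.562% after thinning.

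Notch4, a receptor known from endothelium, stood at 96.3, 96.2, 98.3 and 129 CPM in vascular endothelial-like nuclei. Endocardial-like nuclei followed at 39.6 CPM ± 8.43 and pericyte-like nuclei at 21.7 ± 7.99, and neither range overlapped the one above it. In the other 8 ordered classes the mean was 17.8 CPM or less.

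Notch2, a receptor that B lymphocytes of the spleen's marginal zone need, stood at 404, 559, 548 and 505 CPM in B lymphocyte-like nuclei. Macrophage- or monocyte-like nuclei held 335 CPM ± 40.5, smooth muscle-like 228 ± 43.7, fibroblast-like 206 ± 4.18 and cardiomyocyte-like nuclei 163 ± 14.1. From smooth muscle-like nuclei down to Schwann- or glial-like nuclei each range overlapped the next. Vascular endothelial-like nuclei were lowest at 50.2 CPM ± 6.66, with a range below that of every other ordered class. With marked doublets kept, the level in B lymphocyte-like nuclei was 372 CPM.

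Among the ligands, Jag2 was highest in vascular endothelial-like nuclei, at 99.5, 101, 101 and 135 CPM. The next class, B lymphocyte-like nuclei, held 17.3 CPM ± 20.5, on 15 UMIs in all. Dll4, the ligand of tip cells and arteries, stood at 61.2, 56.7, 75.4 and 67.5 CPM in vascular endothelial-like nuclei, above lymphatic endothelial-like nuclei at 18.8 ± 6.29 and endocardial-like nuclei at 18.5 ± 5.47, which overlapped. Dll1, a ligand of arterial endothelium, was low, at 14.9, 19.4, 20.7 and 20.7 CPM in vascular endothelial-like nuclei, a range that overlapped that of lymphatic endothelial-like nuclei (16.9 ± 3.68).

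A UMI of Jag2, Dll4 and Dll1 was found in 15.7%, 10.1% and 2.96% of vascular endothelial-like nuclei, and in 0.418%, 0.394% and 0.131% of fibroblast-like nuclei, whose median depth was 2215 UMIs. After thinning the shares in vascular endothelial-like nuclei were 10.3%, 6.06% and 1.83%, against 0.139%, 0.228% and 0.0507%. In lymphatic endothelial-like nuclei (median depth 3383.5 UMIs) the shares were 5.03%, 7.69% and 5.92%, or 1.23%, 1.85% and 3.69% after thinning. The share with Dll1 was thus higher there than in vascular endothelial-like nuclei, also after thinning. Jag2 was found in 4.48% of cardiomyocyte-like nuclei (4312 UMIs), or 1.05% after thinning.

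Jag1, the ligand mutated in Alagille syndrome, stood at 256, 194, 211 and 181 CPM in pericyte-like and 182, 132, 164 and 138 CPM in smooth muscle-like nuclei, and these ranges overlapped. Vascular endothelial-, endocardial- and fibroblast-like nuclei held 84.9 CPM ± 7.99, 84.7 ± 16.6 and 72.7 ± 3.30, and these ranges overlapped too. Cardiomyocyte-like nuclei were lowest at 3.93 CPM ± 1.17.

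Rbpj stood at 4729, 4668, 5434 and 5642 CPM in macrophage- or monocyte-like nuclei. The other 10 ordered classes ran from 144 CPM ± 8.18 in vascular endothelial-like to 346 CPM ± 182 in B lymphocyte-like nuclei, and each of these ranges overlapped the next. In B lymphocyte-like nuclei the level was 612 CPM in uninjured-father library 2 and 212 to 311 CPM in the others. Macrophage markers in these B lymphocyte-like nuclei summed to 655 CPM in that library and to 214 to 357 CPM in the others, and their part in the level was not tested. A UMI of Rbpj was found in 89.3% of macrophage- or monocyte-like nuclei (median depth 1539.5 UMIs) and in 20.6% of vascular endothelial-like nuclei, or 83.1% and 13.3% after thinning. With marked doublets kept the level in macrophage- or monocyte-like nuclei was 2966 CPM.

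Hey2, a repressor that Notch switches on, stood at 83.2, 105, 92.4 and 111 CPM in smooth muscle-like nuclei on 102 UMIs in all. Pericyte-like nuclei followed at 26.5 CPM ± 7.53 with no overlap, and no other ordered class held more than 8.11 CPM. With marked doublets kept the level in smooth muscle-like nuclei was 54.9 CPM. A UMI of Hey2 was found in 16.5% of smooth muscle-like nuclei (median depth 1875.5 UMIs) and in 0.812% of fibroblast-like nuclei, or 9.74% and 0.304% after thinning.

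**Figure D2:**
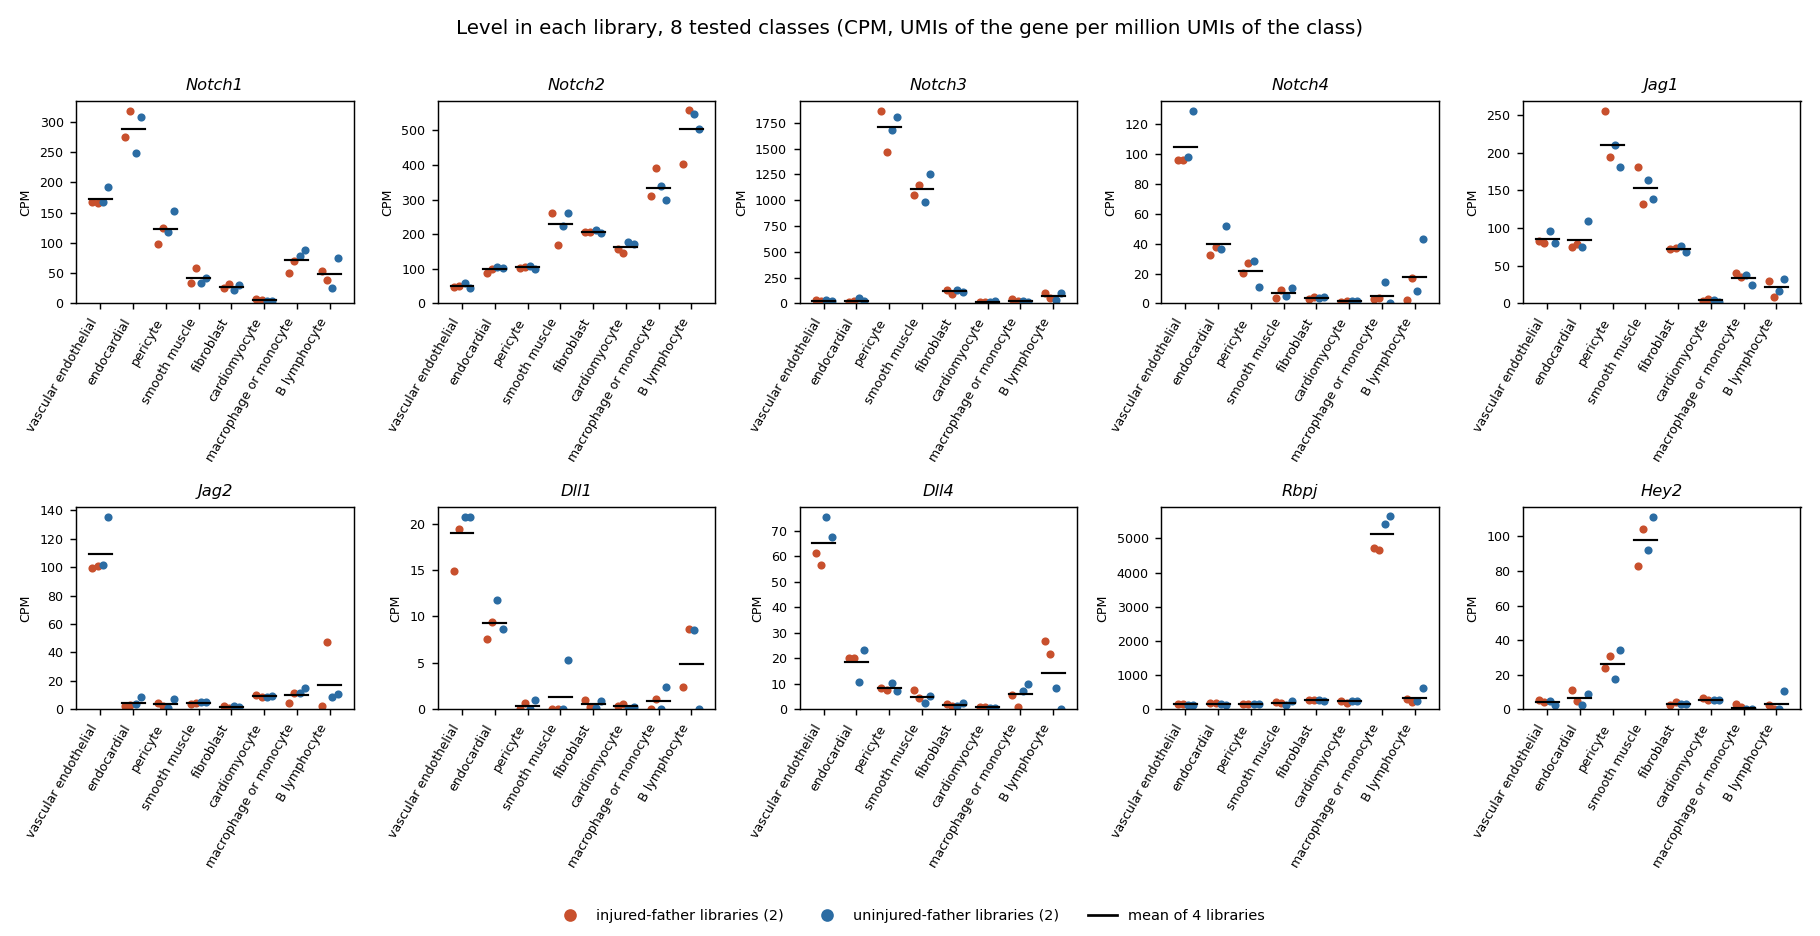
Level of each gene (CPM, linear axis from 0) in 8 classes of nuclei; each point is 1 library, coloured by father group, and the bar is the mean of 4 libraries. The points of the 2 father groups lie close together beside the gaps between classes, as for Jag2, at 99.5 to 135 CPM in vascular endothelial-like nuclei.

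Across the 13 named classes, the genes whose log2 levels (20 CPM added) ran most like those of Notch3 were Irag1, Tbx2 and Pdgfrb (Pearson r 0.98, 0.96 and 0.96), and those most like Rbpj were Tbxas1, Ptafr and Lilrb4a (0.99, 0.98 and 0.98). For Notch4 they were Cd300lg, Clec14a and Abcb1a (0.94, 0.91 and 0.90), and for Dll4 Cd300lg, Zbtb46 and Rps6kl1 (0.96, 0.95 and 0.94). Jag2 was followed by Ssu2, Aplnr and Car4 (0.97, 0.95 and 0.94), Dll1 by Spns2, Ccser1 and Kdr (0.94, 0.94 and 0.93) and Hey2 by Olfr558, Ephx3 and Col19a1 (0.97, 0.97 and 0.97). Notch1 was followed by Eng, Sncaip and Ldb2 (0.91, 0.88 and 0.88), and Jag1 by Ptms, Mpp2 and Pkd2 (0.94, 0.87 and 0.86). Notch2 had the least close neighbours, Snx30, Blnk and C2cd5 (0.80, 0.79 and 0.78). Among the members, Notch4 and Dll4 ran together most closely (0.92), then Dll1 and Dll4 (0.88), Notch3 and Hey2 (0.83) and Jag2 and Dll4 (0.82). Notch2 ran against Notch4 (-0.53). These values describe 13 points that share libraries and depth and are given without a test. Pdgfrb and Kdr were also markers used to name pericyte- and vascular endothelial-like clusters, so their likeness is not independent of the naming.

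Differences between classes were tested with edgeR's quasi-likelihood test on UMIs summed per library and class, with the library as a covariate, Benjamini-Hochberg adjustment over all genes and a threshold of 0.05. Log2 differences were taken after TMM scaling. Between vascular endothelial- and pericyte-like nuclei 9 of 10 members were called, where 46.3% of the 11737 genes tested were called. The median log2 difference was 0.25 over the members and -0.01 over all genes. Notch1, Notch4, Jag2, Dll1 and Dll4 were higher in vascular endothelial-like nuclei and Notch2, Notch3, Jag1 and Hey2 were lower. Notch3 differed by -5.94 (SE 0.14, adjusted p = 1.35e-34, edgeR) and Jag1 by -1.25 (SE 0.10, adjusted p = 4.79e-15, edgeR). Jag2 differed by 5.01 (SE 0.25, adjusted p = 2.88e-22, edgeR), and Rbpj by -0.07 (SE 0.12, adjusted p = 0.686, edgeR).

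Of the 56 other pathway genes tested, 17 were higher and 15 lower in vascular endothelial-like nuclei, beside 46.3% of all genes called. All 5 tested target genes were called. Heyl, a repressor of the Hey family, differed by -4.95 (SE 0.12, adjusted p = 1.15e-33, edgeR). Its level was 250 CPM ± 21.3 in pericyte-like and 6.47 to 9.32 CPM in vascular endothelial-like nuclei. Efnb2, the arterial ephrin ligand, differed by 3.56 (SE 0.13, adjusted p = 2.12e-27, edgeR). The fringe enzymes Mfng and Lfng, which add sugars to receptors, differed by 4.41 and 3.41. Dtx3 and Dtx4, of the Deltex family of ubiquitin ligases, differed by -3.61 and -3.64.

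Between vascular endothelial- and endocardial-like nuclei 6 of 10 members were called, against 35.1% of all genes. Jag2 (4.86, SE 0.30, adjusted p = 1.12e-18, edgeR), Dll4 (1.82), Notch4 (1.44) and Dll1 (0.98) were higher in vascular endothelial-like nuclei. Notch1 (-0.74) and Notch2 (-0.97) were higher in endocardial-like nuclei. Jag1 differed by 0.07 (SE 0.13, adjusted p = 0.714, edgeR). The call of Dll1, on 32 UMIs in endocardial-like nuclei, ended without injured-father library 2 (adjusted p = 0.0839, edgeR). Of 56 pathway genes 14 were higher and 14 lower, among them Nrarp, a feedback inhibitor of Notch (3.27), and the co-repressor Tle1 (-1.65).

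Between pericyte- and smooth muscle-like nuclei 5 of 10 members were called, against 21.9% of all genes. Notch1 (1.51), Notch3 (0.58, SE 0.11, adjusted p = 6.47e-05, edgeR) and Notch4 (1.72) were higher in pericyte-like nuclei, and Notch2 (-1.17) and Hey2 (-1.97, SE 0.24, adjusted p = 4.75e-09, edgeR) in smooth muscle-like nuclei. Notch4 rested on 7 UMIs in smooth muscle-like nuclei, and its call ended without injured-father library 1 or 2 or uninjured-father library 1 (adjusted p 0.0850, 0.0666 and 0.153, edgeR). Jag1 differed by 0.38 and missed the threshold (adjusted p = 0.0558, edgeR). Of 56 pathway genes 8 were higher and 2 lower in pericyte-like nuclei. Heyl was higher (1.76, SE 0.15) and Efnb2 lower (-1.80, SE 0.24) there.

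Smooth muscle-like nuclei formed 2 clusters, numbered 17 (305 nuclei) and 22 (173 nuclei), which were set side by side after their values were seen and so are described without a test. Notch3 stood at 1834, 1451, 1620 and 1978 CPM in cluster 17 and at 161, 42.5, 125 and 123 CPM in cluster 22. Jag1 stood at 271, 145, 220 and 208 CPM against 80.5, 85.1, 89.6 and 27.3 CPM. The ranges did not overlap for either gene. Notch1 did not overlap either, at 40.5 to 69.4 CPM in cluster 17 and 0 to 23.9 CPM in cluster 22, there on 6 UMIs. All calls between pericyte- and smooth muscle-like nuclei, those of Notch3 and Notch1 included, were made on the 2 clusters summed. Pericyte-like nuclei, at 1464 to 1867 CPM, lay within the Notch3 range of cluster 17 and above that of cluster 22. Hey2 stood at 104 to 130 CPM in cluster 17 and 32.2 to 109 CPM in cluster 22, and these overlapped. Smooth muscle markers summed to 5279 to 7924 CPM in cluster 17 and 8130 to 10058 CPM in cluster 22, without overlap. Among them Myh11, the smooth muscle myosin, was at 2914 and 2634.5 CPM, and Myocd, a co-activator of smooth muscle genes, at 810.0 and 1823.5 CPM. Pericyte markers summed to 3190 to 4267 CPM in cluster 17 and 553 to 1224 CPM in cluster 22, and their part in the Notch3 level was not tested. Cardiomyocyte markers summed to 16261 to 23840 CPM in cluster 17 and 13204 to 17452 CPM in cluster 22, which overlapped. Smooth muscle markers, Myocd among them, summed to 2226 to 2852 CPM in cardiomyocyte-like nuclei. The part of cardiomyocyte transcripts in the Myocd levels was not tested.

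**Figure D3:**
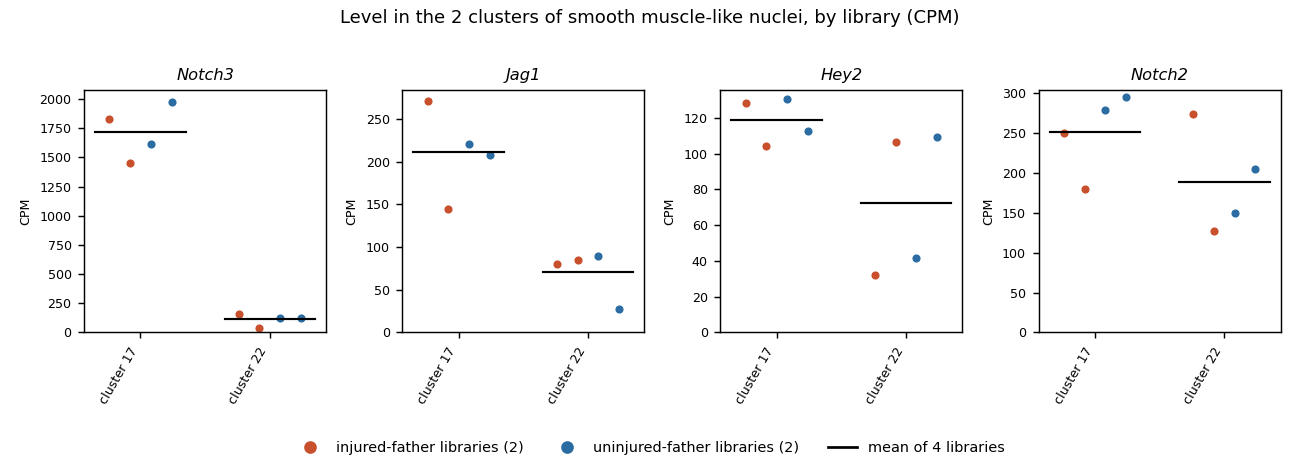
Level (CPM, linear axis from 0) of Notch3, Jag1, Hey2 and Notch2 in the 2 clusters of smooth muscle-like nuclei; points are libraries coloured by father group and bars are means of 4 libraries. Notch3 lies between 1451 and 1978 CPM in cluster 17 and between 42.5 and 161 CPM in cluster 22, whereas Notch2 overlaps.

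Against cardiomyocyte-like nuclei, 9 of 10 members were called in vascular endothelial-like nuclei, where 78.2% of all genes were called, and 8 of 10 in fibroblast-like nuclei, where 77.2% were. These shares are close to or little above those of all genes. In vascular endothelial-like nuclei Dll4 (5.74), Notch4 (5.69), Dll1 (5.29), Notch1 (4.63), Jag1 (3.86) and Jag2 (3.04) were higher and Notch2 (-2.19), Rbpj (-1.16) and Hey2 (-0.82) were lower. All 5 tested target genes of the pathway list were higher, Efnb2 by 4.62. In fibroblast-like nuclei Jag1 (3.54), Notch3 (2.27), Notch1 (1.89) and Notch4 (0.84) were higher and Jag2 (-2.92) and Hey2 (-1.38) lower. Notch2 (-0.25, adjusted p = 0.00233, edgeR) and Rbpj (-0.39, adjusted p = 0.000368, edgeR) were called lower there. Their direction turned with scaling by library size alone (0.34 and 0.21), which moved the median of all genes by 0.59 in that comparison and by 0.49 between vascular endothelial- and cardiomyocyte-like nuclei. With that scaling Hey2 was not called lower in vascular endothelial-like nuclei (-0.33, adjusted p = 0.218, edgeR).

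Between macrophage- or monocyte- and B lymphocyte-like nuclei 5 of 10 members were called, against 26.9% of all genes. Rbpj was higher in macrophage- or monocyte-like nuclei by 4.16 (SE 0.14, adjusted p = 7.14e-28, edgeR), and Notch2 was lower by -0.44 (SE 0.11, adjusted p = 0.00167, edgeR). Of the other 3 calls, Notch1 (0.71), Notch3 (-1.25) and Dll4 (-1.69) rested on 18 to 69 UMIs in B lymphocyte-like nuclei, and each ended when 1 or more libraries were left out. The count of members called was 3 without injured-father library 1 or 2. Of 56 pathway genes 10 were higher and 5 lower.

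Within vascular endothelial-like nuclei, sub-clusters were named by markers of arterial (387 nuclei), capillary (1304) and venous endothelium (1648), and 3913 nuclei stayed unnamed. One of the 2 capillary-like sub-clusters was led by genes of the ribosome. Jag1, Hey2 and the targets Hey1 and Efnb2 were highest in arterial-like nuclei, and Dll4 was lowest in venous-like nuclei. Jag1 stood at 478, 327, 544 and 349 CPM in arterial-like, 44.4 CPM ± 10.8 in capillary-like and 97.5 CPM ± 16.3 in venous-like nuclei, with no overlap among the 3.

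Between arterial- and venous-like nuclei 6 of the 9 tested members were called, against 17.3% of all genes. All 6 were higher in arterial-like nuclei, with Dll4 at 2.47 (SE 0.29, adjusted p = 2.1e-10, edgeR), Jag1 at 2.13 (SE 0.15, adjusted p = 2.1e-19, edgeR), Notch3 at 1.57, Notch4 at 1.28, Jag2 at 1.09 and Notch1 at 0.89. Dll1 differed by -0.43 (SE 0.35, adjusted p = 0.498, edgeR). Dll4 in arterial-like nuclei was uneven, at 23.3 and 83.0 CPM in the injured-father and 140 and 202 CPM in the uninjured-father libraries, on 75 UMIs in all. Father groups were not compared by a test within subtypes, so these values are description only. Its venous-like level was 14.2 to 23.9 CPM, which the lowest arterial-like library overlapped. Pericyte markers summed to 430 to 775 CPM in arterial-like and 225 to 255 CPM in venous-like nuclei, and their part in the Notch3 difference was not tested. That call ended with marked doublets kept (0.76, adjusted p = 0.283, edgeR).

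Between venous- and capillary-like nuclei 5 of 9 members were called, against 30.3% of all genes. Dll4 (-2.26, SE 0.22, adjusted p = 9.58e-14, edgeR), Notch4 (-0.88) and Notch1 (-0.73) were lower and Dll1 (1.94, SE 0.29, adjusted p = 9.42e-08, edgeR) and Jag1 (1.21) higher in venous-like nuclei. By sub-cluster, mean Notch1 was 251 and 167 CPM in capillary-like and 122, 176 and 148 CPM in venous-like nuclei. The lower capillary-like sub-cluster thus lay within the venous-like values for Notch1, and sub-clusters were not tested singly. Dll1 stood at 32.9, 37.1, 41.6 and 41.8 CPM in venous-like and 8.16 to 11.7 CPM in capillary-like nuclei. Dll1 and Dll4, both Delta-like ligands, thus differed in opposite directions between these 2 subtypes. All 4 tested target genes of the pathway list were lower in venous-like nuclei, namely Hey1 (-4.73), Nrarp (-2.14), Efnb2 (-1.59) and Hes1 (-1.46). Over the whole list 8 of 44 were higher and 11 lower.

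Between arterial- and capillary-like nuclei 5 of 9 members were called, against 21.1% of all genes. Jag1 (3.34, SE 0.18, adjusted p = 1.6e-25, edgeR), Dll1 (1.51), Notch3 (0.99), Jag2 (0.77) and Rbpj (0.76) were higher in arterial-like nuclei. The count was 2 with a stricter filter on nuclei and 3 with doublets kept or with finer clusters. The calls of Dll1, Notch3 and Rbpj ended under 1 or more of these settings. Pericyte markers summed to 430 to 775 CPM in arterial-like and 665 to 943 CPM in capillary-like nuclei. Their part in the Notch3 difference was not tested here either. Notch1 differed by 0.16 (SE 0.14) and Dll4 by 0.21 (SE 0.23), neither called (adjusted p 0.528 and 0.624, edgeR). Mean Notch1 was 259 CPM in arterial-like nuclei, beside 251 and 167 CPM in the capillary-like sub-clusters, which were summed for the test.

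Hey2 fell below the filter on low counts in the subtypes. It stood at 46.6, 39.1, 39.5 and 9.20 CPM in arterial-like nuclei (26 UMIs) and at 2.20 to 4.38 CPM in venous-like nuclei (11 UMIs), ranges that did not overlap. Without that filter the difference was 3.37 (SE 0.58, adjusted p = 1.74e-07, edgeR). Hey1 was higher in arterial- than venous-like nuclei by 6.29 (SE 0.59) and Efnb2 by 2.44 (SE 0.12). Efnb2 stood at 653 to 752 CPM in arterial-like, 323 to 467 in capillary-like and 113 to 164 CPM in venous-like nuclei. Over the whole list 5 of 44 were higher and 3 lower in arterial- than in venous-like nuclei, and against capillary-like nuclei also 5 and 3. These shares are near or below those of all genes, 17.3% and 21.1%.

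**Figure D4:**
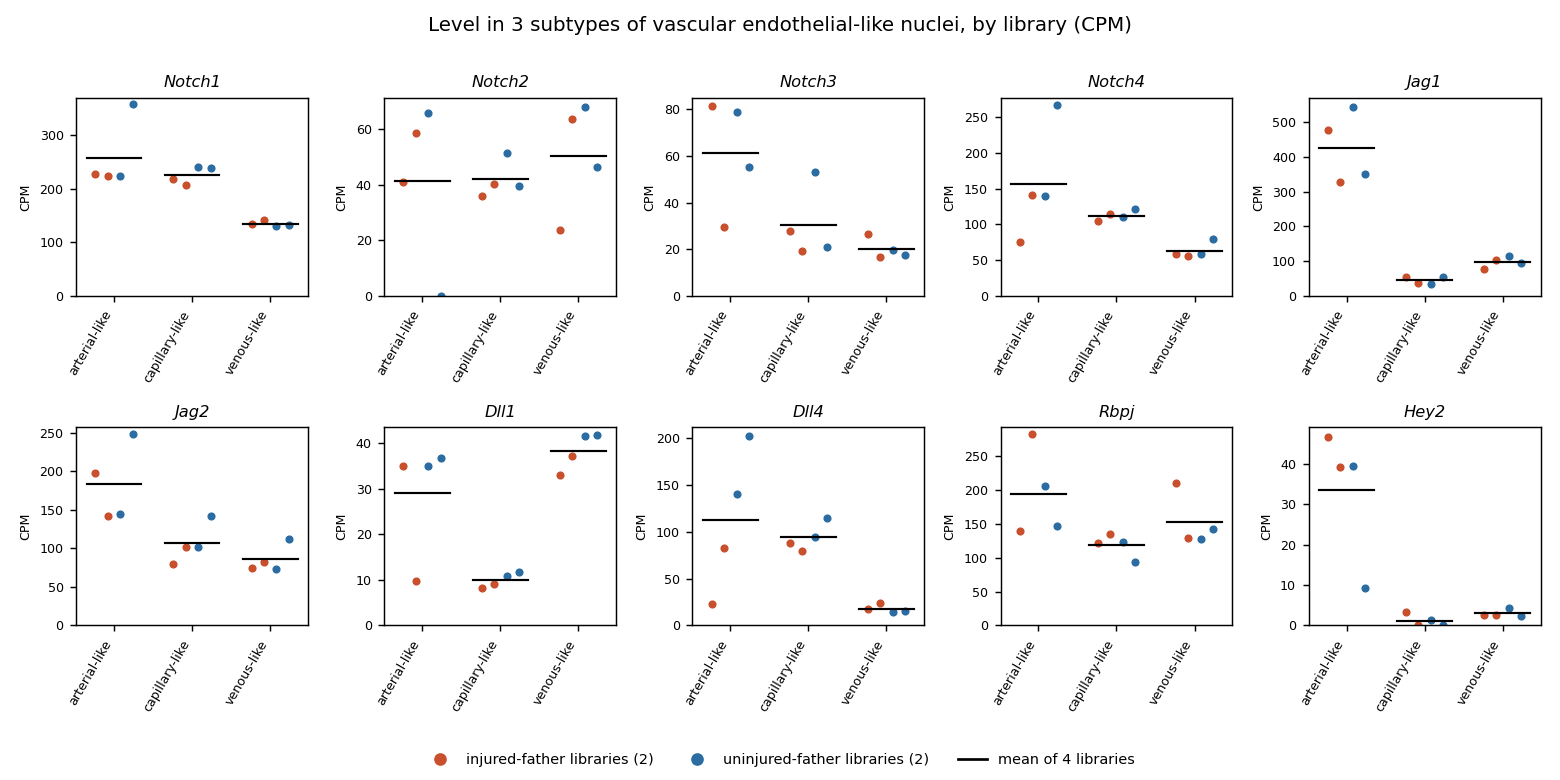
Level (CPM, linear axis from 0) of each gene in arterial-, capillary- and venous-like nuclei; points are libraries coloured by father group and bars are means of 4 libraries. Jag1 lies at 327 to 544 CPM in arterial-like nuclei, above both other subtypes, and Dll1 is lowest in capillary-like nuclei at 8.16 to 11.7 CPM.

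In cardiomyocyte-like nuclei, ventricular-like (8429 nuclei) and atrial-like (740 nuclei) clusters were compared. Here 3 of the 7 tested members were called, against 26.9% of all genes. Hey2, which is known to repress atrial genes in the ventricle, stood at 7.45, 5.76, 5.82 and 5.60 CPM in ventricular-like and 0, 0.570, 1.07 and 4.53 CPM in atrial-like nuclei. The atrial-like values rest on 3 UMIs. The log2 difference was 2.86 (SE 0.65, adjusted p = 0.000794, edgeR). Rbpj was higher in ventricular-like nuclei by 0.80 (SE 0.10, adjusted p = 1.18e-07, edgeR), at 198 to 262 CPM against 104 to 176 CPM, and the ranges did not overlap. Notch2 was lower by -0.45 (SE 0.09, adjusted p = 0.000282, edgeR), at 139 to 176 CPM against 187 to 240 CPM. With doublets kept 7 members were called, while Notch2 was not (-0.19, adjusted p = 0.0860, edgeR). Of 46 pathway genes 2 were higher and 7 lower.

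Offspring of injured and of uninjured fathers were compared in 8 classes and over all nuclei, which asks whether the genes differ with the father's injury. No member was called in any of these 9 comparisons by edgeR or by DESeq2. Members entered 4 to 10 at a time, since those with few UMIs in a class fell below the filter. Over all genes 0% were called in vascular endothelial-, smooth muscle- and B lymphocyte-like nuclei, 0.00799% in cardiomyocyte-like, 0.0161% in fibroblast-like, 0.024% in endocardial-like, 0.0698% in pericyte-like and 0.156% in macrophage- or monocyte-like nuclei, and 0.101% over all nuclei. The smallest p of an exact permutation test with 2 libraries against 2 is 0.333. In all nuclei together, where fewer cells of a class and less RNA per cell cannot be told apart, the log2 differences of the members ran from -0.21 (Notch3) to 0.22 (Notch1).

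In their classes of highest level the groups were close. Notch3 in pericyte-like nuclei stood at 1867 and 1464 CPM with injured and 1681 and 1806 CPM with uninjured fathers, a log2 difference of -0.03 (SE 0.14, adjusted p = 0.998, edgeR). Jag1 in the same nuclei had 0.21 (SE 0.15, adjusted p = 0.998, edgeR). Rbpj in macrophage- or monocyte-like nuclei was lower in both injured-father libraries, at 4729 and 4668 against 5434 and 5642 CPM, with a log2 difference of -0.22 (SE 0.12, adjusted p = 0.865, edgeR).

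In vascular endothelial-like nuclei Dll4 had -0.25 (SE 0.14, adjusted p = 0.941, edgeR), at 61.2 and 56.7 against 75.4 and 67.5 CPM, so these groups did not overlap either. Notch4, Jag2 and Dll1 had -0.19, -0.19 and -0.22 there. Their groups did not overlap either, with both injured-father libraries lower. For Jag2 the nearest libraries were at 100.9 and 101.3 CPM, and those of Notch4 were close too. Rbpj did not overlap in the other direction, at 155 and 146 against 138 and 138 CPM (0.16, SE 0.12). None of these passed the test, and 0% of all genes were called in that class. The share of all genes whose groups did not overlap was not counted for any class. If all orders are equally likely, 2 libraries against 2 separate with a probability of 0.333, so a lack of overlap is description only. Notch1 in endocardial-like nuclei had 0.14 (SE 0.17), Notch2 in B lymphocyte-like nuclei -0.15 (SE 0.25) and Hey2 in smooth muscle-like nuclei -0.11 (SE 0.32).

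An unadjusted p under 0.05 was found for 2 of the tested values, both in endocardial-like nuclei, where 7 members were tested. Over all genes of that class it was found for 388 of 8319. Notch3 stood at 16.3 and 21.0 CPM with injured and 49.2 and 20.2 CPM with uninjured fathers, with a log2 difference of -1.02 (SE 0.40, adjusted p = 0.985, edgeR). The groups overlapped, and 1 uninjured-father library was high. Rbpj stood at 200 and 185 against 150 and 138 CPM, with 0.41 (SE 0.18, adjusted p = 1, edgeR), and the groups did not overlap. None of the tested genes among the other 63 of the pathway was called in any of the 9 comparisons (edgeR). An unadjusted p under 0.05 was found for 0 to 3 of the 28 to 59 pathway genes tested in each comparison. In vascular endothelial-like nuclei it was 3 of 54, beside 612 of 11339 genes in all, so the share was near that of all genes.

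**Figure D5:**
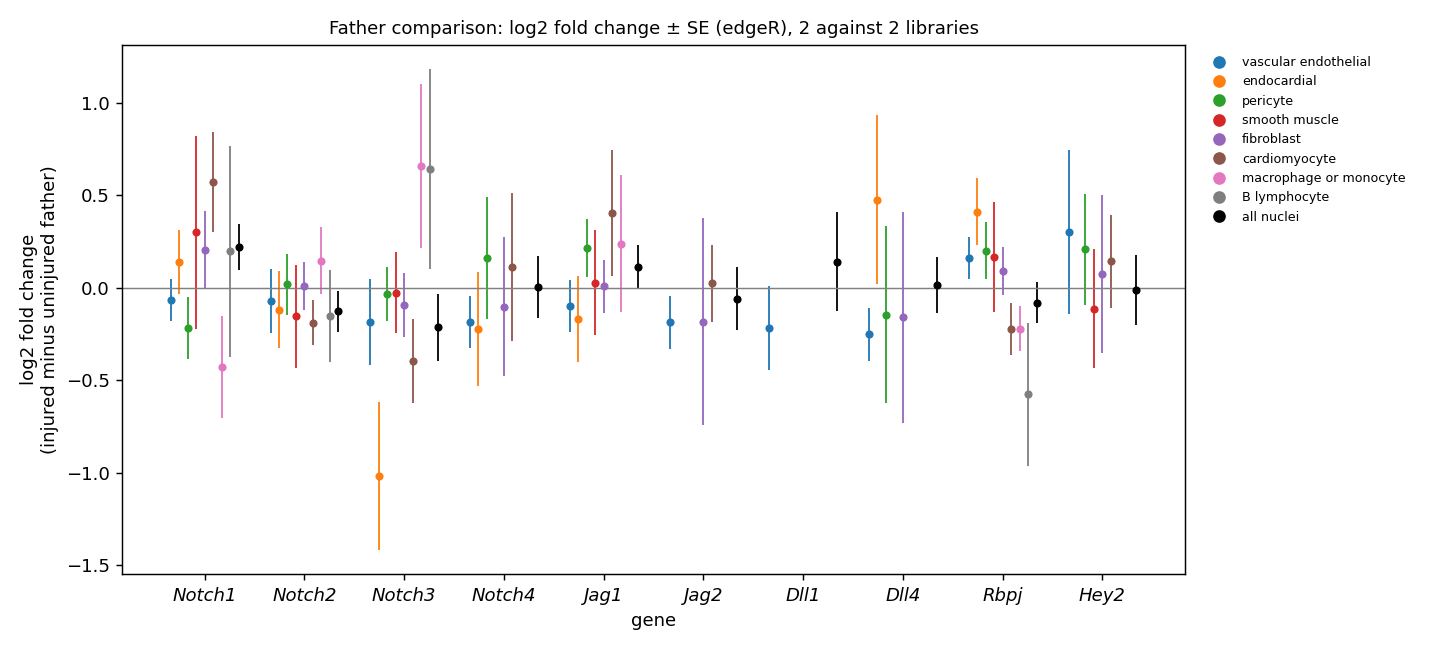
Log2 difference (offspring of injured minus uninjured fathers, bars are ± SE from edgeR, 2 against 2 libraries) of each gene in each class where it was tested and in all nuclei. No value passed the threshold, and the value farthest from 0 is Notch3 in endocardial-like nuclei at -1.02.

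Whether the father difference itself differed between classes was tested as an interaction against vascular endothelial-like nuclei. No member was called for endocardial-, pericyte-, fibroblast- or cardiomyocyte-like nuclei (edgeR), where 0.016%, 0%, 0.008% and 0.072% of all 12502 genes were called. Unadjusted p-values under 0.05 numbered 0, 0, 0 and 3 among the members, beside 632, 388, 428 and 471 among all 12502 genes. The 3 were Notch1 (0.57, SE 0.25), Dll1 (1.88, SE 0.90) and Rbpj (-0.41, SE 0.19) in cardiomyocyte-like nuclei, each with an adjusted p of 1.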

How the data were processed

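The authors deposited raw UMI counts per gene and barcode, and per the file headers the software was Cell Ranger 6.0.1. The submitters' processing notes also name Seurat 4.0. The build used in counting was not stated in labels or headers. Per the labels, red cells were removed by sorting and a droplet kit reading the 3' end was used.

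The members and all lists were chosen with earlier results of these data known. Barcodes with at least 500 UMIs, 300 genes and under 5% mitochondrial UMIs were kept, and doublets were removed with Scrublet (scanpy 1.11.5). Counts were scaled to 10000 per nucleus and logged. Leiden clustering (leidenalg 0.10.2, resolution 1.0) used 3000 variable genes, 30 components and 20 neighbours, without the 73 pathway genes. Clusters were named by the highest mean fold of 17 marker lists (20 CPM added). A fold above 1, a second list at most 0.75 of the first, and reasons for leaving clusters unnamed were set after clusters were seen. In all, 587 nuclei stayed unnamed. Names were made here, so they may differ from the authors' own.

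UMIs were summed per library and class. The test was edgeR 4.0.16 (quasi-likelihood, TMM, filterByExpr minimum 10, R 4.3.3), two-sided, adjusted over all genes. Classes needed 50 nuclei per library and subtypes 20, so the planned comparison with lymphatic endothelial-like nuclei (41 in 1 library) was not run. SE is the absolute log2 difference over the square root of F, and can be too small at few UMIs. All 10 members were named, with pathway genes named by smallest p within each role. Scripts were tested on simulated data. Alternatives were DESeq2 1.42.0, RLE scaling, no filter, each library left out, replicate block, stricter nuclei (1000 UMIs, 600 genes), doublets kept, resolution 2.0, pathway genes kept in clustering, thinning to 1000 UMIs and, added after the data were seen, library-size scaling. Libraries were treated as unpaired in the main test. Deviations from group means of libraries numbered alike correlated by 0.07 over genes. With 2 libraries per group this cannot exclude a shared batch.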

Additional observations from a re-analysis of the deposited data

How the results depend on the processing

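Of 727 log2 differences between classes called by edgeR and recomputed under the alternatives, 696 kept their direction and call, 29 lost the call and 2 turned, and of 391 not called 346 stayed so in the same direction. The count of members called fell from 5 to between 3 and 5 with 1 library left out for macrophage- or monocyte- against B lymphocyte-like nuclei. Against capillary-like nuclei the arterial-like count went from 5 to 2 (stricter nuclei), 3 (doublets kept) and 3 (resolution 2), and the ventricular- against atrial-like count from 3 to 7 with doublets kept. The other counts of members stayed within 1.5 times under the alternatives that were run, and 0 members were called between father groups in each, DESeq2 included. Over all genes the father counts moved widely, for all nuclei from 15 to between 0 and 542. The causes of these changes were not tested.

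With library-size scaling the fibroblast- minus cardiomyocyte-like differences turned for Notch2 (0.34) and Rbpj (0.21), and that of Hey2 between father groups in all nuclei became 0.0051. With doublets kept these turned: Notch3 (0.20) and Hey2 (0.22) for vascular endothelial- minus endocardial-like, Notch3 (-0.091) for vascular endothelial- minus cardiomyocyte-like, Jag2 (0.63) for pericyte- minus smooth muscle-like and Notch3 (-0.66) for ventricular- minus atrial-like nuclei. Between father groups they were Notch3 in pericyte-like (0.060), Hey2 in smooth muscle-like (0.16), and Notch4 (-0.058) and Dll1 (-0.029) in all nuclei. Stricter nuclei turned Hey2 for vascular endothelial- minus endocardial-like (0.47) and Notch2 for arterial- minus capillary-like nuclei (-0.064). Resolution 2 turned Notch3 (0.36) and Dll4 (-0.038) in the same respective comparisons.

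With 1 library left out, values that were not called crossed 0. For vascular endothelial- minus endocardial-like nuclei Notch3 ran from -0.34 to 0.29 and Jag1 from -0.035 to 0.15. Dll1 ran from -2.12 to 2.56 for pericyte- minus smooth muscle-like and from -0.22 to 0.88 for fibroblast- minus cardiomyocyte-like nuclei. For macrophage- or monocyte- minus B lymphocyte-like nuclei Jag2 ran from -0.93 to 0.87 and Hey2 from -1.62 to 0.32. For arterial- minus capillary-like nuclei Notch2 ran from -0.020 to 0.41 and Dll4 from -0.0043 to 0.53, and for arterial- minus venous-like Notch2 from -0.31 to 0.055. Between father groups Notch2 in B lymphocyte-like ran from -0.37 to 0.091, Notch3 in pericyte-like from -0.22 to 0.13 and Hey2 in smooth muscle-like nuclei from -0.27 to 0.042. In all nuclei Notch3 ran from -0.52 to 0.043, Notch4 from -0.18 to 0.19, Jag2 from -0.27 to 0.16, Dll1 from -0.090 to 0.33, Dll4 from -0.020 to 0.054 and Hey2 from -0.10 to 0.070.

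In the labels, libraries share only a number between father groups. With the replicate block 0 members were called in each of the 9 father comparisons, Notch3 in pericyte-like nuclei was at -0.04, and the count over all genes moved from 15 to 210 in all nuclei. Levels of Dll1, Hey2 in subtypes and ligands outside endothelium rest on few UMIs, so depth limits the comparisons there.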
